A study of Mus musculus with 20 samples.

Results

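Ribosome footprints of fed mouse embryonic fibroblasts that had lost Ogt were compared with those of fed cells given Thiamet-G, the pair of states meant to lower and to raise O-GlcNAc modification. The comparison rests on 4 of 20 libraries, chosen by their titles as the fed Ribo-seq libraries of either state, 2 of knockout and 2 of Thiamet-G cells. All cells were fibroblasts of the strain C57BL/6J kept in DMEM with serum. Knockout cells received 0.5 µM 4-OHT for 24 h and then 24 h of fresh medium. Thiamet-G cells received 0.1 µM of the compound for 16 h and, per the labels, no 4-OHT. Untreated control cells, and the same 3 states starved of amino acids for 2 h, gave the other 8 Ribo-seq libraries, and 8 further libraries sampled ribosomes bound by the initiation factor eIF3. The labels name no Cre driver for the knockout, no clone, and no vehicle for either agent, so the loss of Ogt cannot be told apart from 4-OHT and the change of medium. The files hold no measure of O-GlcNAc. Nothing in the labels says that replicates were separate cultures, so p-values rest on a spread between libraries that may be only technical.

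Ogt encodes O-GlcNAc transferase, which adds a single sugar, N-acetylglucosamine, to serines and threonines of proteins in the nucleus and cytoplasm. O-GlcNAcase removes this sugar, and Thiamet-G inhibits O-GlcNAcase, so the knockout is used to lower and the compound to raise the modification. The series title places the sugar on eIF3a, a scaffold subunit of the factor that brings the small ribosomal subunit to mRNA, and links it to reinitiation in the integrated stress response, the program that amino acid shortage sets off. In Ribo-seq, RNase digests the mRNA outside ribosomes and the protected fragments are sequenced. The number of fragments on a coding region depends on how much of its mRNA a cell holds and on how many ribosomes each mRNA carries. Levels of mRNA were not analysed here, so these causes of a difference cannot be told apart. In such bulk samples fewer cells of a type and less RNA per cell cannot be told apart either.

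Every file pairs Ensembl transcript identifiers with an RPKM, the reads on a transcript scaled to its length and to the library total. The files do not pair identifiers with gene names, and 0 identifiers matched the reference table, so Ogt itself, fibroblast markers and gene groups of the stress response were not analysed here. The transcripts are described by coding length, level and identifier. Library totals, recovered from the steps between RPKM values, were 4328260 and 1350105 reads in knockout replicates 1 and 2 and 3430370 and 1934368 reads in Thiamet-G replicates 1 and 2. Replicate 1 of both states was listed from 5 reads and replicate 2 from 1 read, so replicate number and this difference in listing coincide in fed cells. The files listed 10612 and 11448 transcripts for knockout and 10438 and 11917 for Thiamet-G cells, and 9434 were in all 4.

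By correlation, each of the 4 libraries lay closer to a library of another group than to its own replicate. Across 8360 transcripts listed in all 12 Ribo-seq files and tested, log2 levels of Thiamet-G replicate 1 correlated at r = 0.989 with control replicate 1 and at 0.861 with Thiamet-G replicate 2. Levels of knockout replicate 1 correlated at 0.960 with starved knockout replicate 1 and at 0.936 with starved control replicate 1, against 0.843 with knockout replicate 2. Knockout replicates 1 and 2 correlated at 0.908 and 0.857 with Thiamet-G replicate 1, so both were nearer to it than to each other. Thiamet-G replicate 2 correlated at 0.870 with control replicate 2. Transcripts of a library are not independent, and these correlations describe the libraries only. No pair was a duplicate deposit. The mean chi-square per transcript was 74.3 between the knockout replicates, 57.3 between the Thiamet-G replicates and 11.3 between Thiamet-G replicate 1 and control replicate 1, the lowest of 66 Ribo-seq pairs. Its median was 65.8 over the 6 pairs of replicates of a group and 52.9 over the 60 other pairs. This measure grows with the reads of a pair, and Ribo-seq library totals ran from 844403 to 5846130. The medians therefore do not rank how alike the libraries are.

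No single transcript passed the test between knockout and Thiamet-G cells. Limma called 0 of 10936 transcripts (0%) at a Benjamini-Hochberg adjusted p under 0.05, with a smallest adjusted p of 0.823. At an unadjusted p under 0.05 there were 642 transcripts (5.87%), of which 391 (3.58%) were higher and 251 (2.30%) lower in knockout cells. The median standard error of a log2 difference was 0.885, and the matching 95% interval reached 1.92 to either side, a factor of 3.78. Above 200 RPKM the median standard error was 0.581 and the interval spanned a factor of 2.39 to either side. A transcript that misses the threshold is thus not shown to be alike in both states. With the kind of listing as a block, limma called 0 transcripts and 1105 had an unadjusted p under 0.05. Limma-voom on recovered reads also called 0 transcripts, with 636 of 9900 (6.42%) at an unadjusted p under 0.05.

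Differences agreed between the replicate numbers for a part of the transcripts. Of the 10936, 2889 (26.4%) were higher in knockout cells in both numbers and 2905 (26.6%) lower in both, which leaves 5142 with opposite signs or no difference in a number. At least 2-fold differences in both numbers, on the log2(RPKM + 1) scale, were found for 626 transcripts higher (5.72%) and 419 lower (3.83%) in knockout cells. Replicate 1 alone had 1735 such transcripts higher (15.9%) and 1593 lower (14.6%), and replicate 2 alone had 2648 (24.2%) and 2532 (23.2%). Unrelated differences would also agree in sign or size for many transcripts, and that share was not computed. Across transcripts the differences of the 2 numbers, which share no library, correlated at r = 0.133 (Spearman's rho 0.160, n = 10936). Among transcripts listed in all 12 files the correlation was 0.174 (n = 8360).

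**Figure D1:**
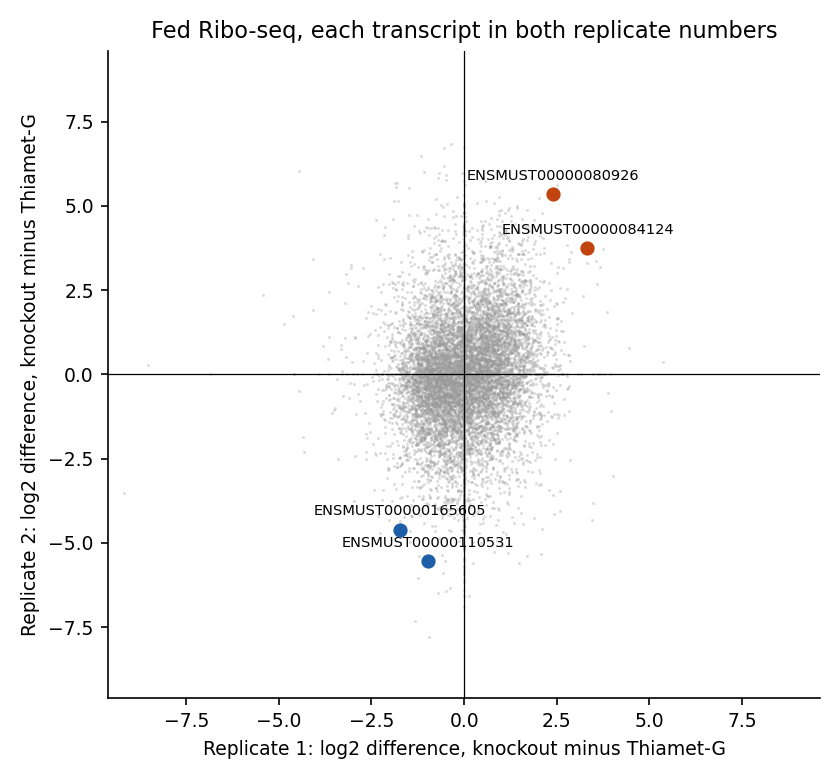
Log2 difference of rescaled RPKM + 1 between knockout and Thiamet-G cells in replicate 1 (horizontal) and replicate 2 (vertical), with 1 grey point for each of 10936 tested transcripts and the 4 named transcripts in colour. The cloud is only slightly tilted (r = 0.133), and replicate 2 spreads further than replicate 1.

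The 626 and the 419 transcripts differed in coding length, and most kept their direction in starved cells, with larger medians in 1 starved pair. Coding lengths of the 626 had a median of 1647 nt, and 12 of 624 with a known length (1.92%) were at most 600 nt long. The 419 had a median of 775.5 nt, and 144 of 418 (34.4%) were at most 600 nt long, against 13.1% of all tested transcripts. Median levels of the sets were 20.4 and 36.2 RPKM. In starved cells, where other libraries were used, the knockout minus Thiamet-G difference was above 0 for 490 of the 626 (78.3%, median 0.73) and below 0 for 313 of the 419 (74.7%, median -0.73). Over all tested transcripts 51.0% were above and 47.7% below 0 there. The starved pair listed from 5 reads gave medians of 1.00 and -0.97 for the sets, and the pair listed from 1 read gave 0.31 and -0.54. Across all tested transcripts, the fed difference of replicate 1 correlated at r = 0.586 with the starved pair listed from 5 reads. That of replicate 2 correlated at only 0.0755 with the starved pair listed from 1 read. Limma called 0 of 10936 transcripts (0%) in starved cells, with 528 (4.83%) at an unadjusted p under 0.05, and 1 with the kind of listing as a block.

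Short coding regions held a smaller share of footprints in knockout than in Thiamet-G cells. Coding regions of at most 600 nt took 25.2% and 28.3% of recovered reads in knockout replicates 1 and 2, and 39.95% and 33.8% in Thiamet-G replicates 1 and 2. The groups did not overlap, and the difference was -14.7 percentage points in replicate 1 and -5.44 points in replicate 2, with a mean of -10.1 ± 6.58 (SD, n = 2). Fed control cells, at 43.2% and 34.4%, stood with the Thiamet-G cells. No test is given, because a two-sided exact permutation of 2 against 2 libraries cannot give a p below 1 in 3. The 95% Wilson interval of any such share spanned at most 0.197 points, which covers counting error only, so the spread between replicates sets the precision.

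Regions of middle length held a larger share in knockout than in Thiamet-G cells. Shares of a library are parts of a whole, so this is not separate from the smaller share of short regions. Coding regions of over 900 to 1500 nt took 26.6% ± 1.15 of reads in knockout and 21.4% ± 1.37 in Thiamet-G cells (SD, n = 2 each). The difference was 6.99 points in replicate 1 and 3.42 points in replicate 2. Coding regions of over 1500 to 3000 nt took 21.5% ± 0.911 and 15.3% ± 2.30 (n = 2 each), a difference of 8.52 points in replicate 1 and 3.98 points in replicate 2. Both classes were higher in each knockout library than in either Thiamet-G library. Over 3000 nt the order was not the same in both numbers. Knockout replicates 1 and 2 had 8.36% and 6.33% of reads there, and Thiamet-G replicates had 5.86% and 7.045%. Without knockout replicate 1 this last difference turned from 0.899 to -0.115 points.

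**Figure D2:**
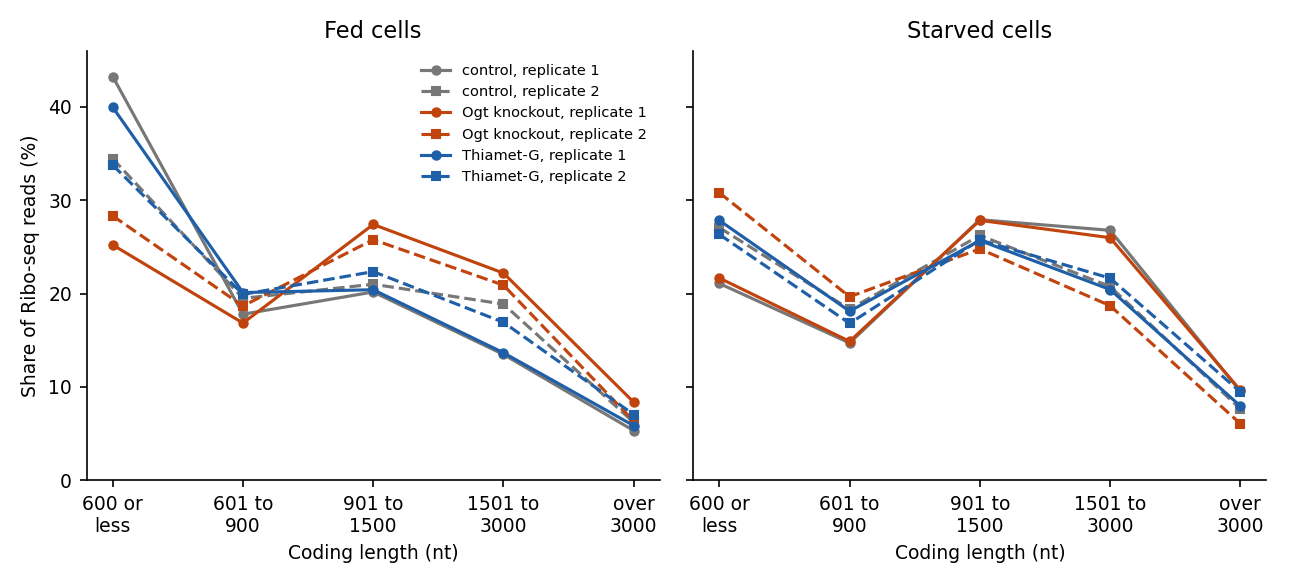
Share of recovered Ribo-seq reads (%) by class of coding length (nt) in each fed and starved library, with colour for the state, solid lines and circles for replicate 1, and dashed lines and squares for replicate 2. In fed cells both knockout libraries (25.2% and 28.3%) lie below both Thiamet-G libraries (39.95% and 33.8%) in the shortest class and above them between 900 and 3000 nt.

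The most read transcripts, which are part of the same reads and no separate check, showed the same order. Among the 100 transcripts with the most reads, 53 and 46 were at most 600 nt long in knockout replicates 1 and 2, against 71 and 61 in Thiamet-G replicates. These 100 transcripts took 20.9% and 21.2% of all reads in knockout and 26.9% and 24.9% in Thiamet-G cells. Starved libraries of the 3 states ranged from 17.4% to 22.3%. The lists of 100 shared 48 transcripts between the knockout replicates, 75 between the Thiamet-G replicates and 71 between replicate 1 of either state. Knockout replicate 1 thus shared more of its most read transcripts with Thiamet-G replicate 1 than with its own replicate.

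Typical transcripts, each counted once whatever its reads, followed coding length in the same direction but far more in replicate 1. Medians are given relative to the median of all tested transcripts, which was -0.02 in the fit. Coding regions of at most 600 nt (1399 transcripts) had a median log2 difference, knockout minus Thiamet-G, of -0.81 in replicate 1 and -0.16 in replicate 2. Regions of over 600 to 900 nt (1493) had -0.49 and -0.14. Regions of over 900 to 1500 nt (3038) lay at 0.00 and 0.04. Regions of over 1500 to 3000 nt (3297) had 0.36 and 0.12, the highest of the classes in both numbers. The longest regions, over 3000 nt (1445), lay at 0.32 in replicate 1 and -0.06 in replicate 2.

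Knockout replicate 1 sets much of the size of this pattern. In the limma fit the medians were -0.49 for at most 600 nt, -0.29 for over 600 to 900 nt, 0.06 for over 900 to 1500 nt, 0.25 for over 1500 to 3000 nt and 0.15 for over 3000 nt. Without knockout replicate 1 the shortest class lay at -0.24, the next at -0.12 and the class of over 1500 to 3000 nt at 0.15, while the longest class turned to -0.09. Without knockout replicate 2 the shortest class lay at -0.72, the next at -0.44, the class of over 1500 to 3000 nt at 0.34 and the longest at 0.35, while the class of over 900 to 1500 nt turned from 0.06 to -0.01. Leaving out Thiamet-G replicate 1 or 2 gave -0.43 and -0.58 for the shortest class. The part of the listing from 5 reads or from 1 read in the gap between the replicate numbers was not tested. Among transcripts listed in all 12 files the shortest class had medians of -0.83 and -0.18.

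**Figure D3:**
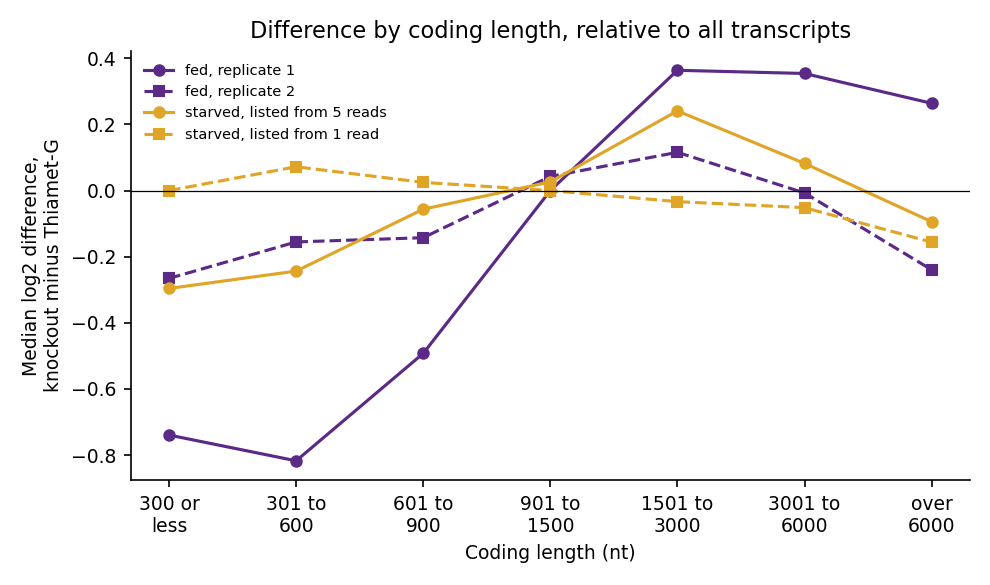
Median log2 difference, knockout minus Thiamet-G, relative to all tested transcripts, by class of coding length (nt), for the fed pairs and for the starved pairs matched by the number of reads from which their files were listed. Fed replicate 1 runs from -0.74 for at most 300 nt to 0.36 for over 1500 to 3000 nt, and fed replicate 2 from -0.27 to 0.12.

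Among transcripts whose libraries did not overlap, the balance between higher and lower ones followed coding length. Over all tested transcripts, both knockout libraries lay above both Thiamet-G libraries for 1903 (17.4%) and below both for 1838 (16.8%). With 2 libraries against 2, random order alone separates the groups, in either direction, for 1 in 3 transcripts. The shares over all transcripts were near that level, so only the balance within classes is described. Of the 1399 transcripts of at most 600 nt, 44 (3.15%) lay above and 462 (33.0%) below. For over 600 to 900 nt the numbers were 125 (8.37%) and 369 (24.7%) of 1493. Of the 3297 transcripts of over 1500 to 3000 nt, 849 (25.8%) lay above and 365 (11.1%) below, and of the 1445 over 3000 nt, 299 (20.7%) and 149 (10.3%). The balance between higher and lower transcripts was close to even only for over 900 to 1500 nt, with 583 (19.2%) and 487 (16.0%) of 3038.

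Length and level are linked in these libraries, so both were set out together. Transcripts of at most 600 nt had a median level of 157.5 RPKM and those over 3000 nt of 6.79 RPKM. Within the short class, transcripts over 200 RPKM (627) had medians of -0.90 and -0.21 in replicates 1 and 2, those of 20 to 200 RPKM (556) -0.82 and -0.12, and those under 20 RPKM (216) -0.30 and 0.00. Over 1500 nt the medians were 0.87 and 0.62 over 200 RPKM (50), 0.57 and 0.12 at 20 to 200 RPKM (1416), and 0.25 and 0.01 under 20 RPKM (3276). In replicate 1 short regions lay below 0 and long ones above 0 at each of these levels, and in replicate 2 at 20 RPKM or more but not under 20 RPKM. The pseudocount of 1 RPKM shrinks differences of low transcripts by construction.

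In starved cells the shares of the states overlapped. Coding regions of at most 600 nt took 21.7% and 30.8% of reads in starved knockout replicates and 27.8% and 26.3% in starved Thiamet-G replicates. The group means were 26.2% ± 6.47 and 27.1% ± 1.06 (SD, n = 2 each), against 26.8% ± 2.20 and 36.9% ± 4.38 in fed knockout and Thiamet-G cells. The titles of the starved Thiamet-G libraries number them the other way round from the listing, so values are given in both pairings. Median log2 differences of this class were -0.26 in the starved pair listed from 5 reads and 0.05 in the pair listed from 1 read, and -0.42 and 0.37 in the pairs of title replicates 1 and 2. For over 1500 to 3000 nt they were 0.24 and -0.03 by listing and 0.33 and -0.04 by title. Whether the length pattern differs between fed and starved cells was not tested at the level of classes. For single transcripts, limma called 0 of 10936 (0%) for the difference of the contrast between starved and fed cells, with 247 (2.26%) at an unadjusted p under 0.05.

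The fed contrast ran along the response of control cells to starvation. That response was measured in 4 other libraries, but these resembled the libraries of the contrast. Control replicate 1 correlated at 0.989 with Thiamet-G replicate 1, and starved control replicate 1 at 0.936 with knockout replicate 1. Transcripts were split into 5 equal groups of 2187 or 2188 by the starved minus fed difference in control cells. In the group that fell most, with a median of -1.25 in control cells, knockout minus Thiamet-G had a median of -0.75 in replicate 1 and -0.29 in replicate 2. In the next groups the medians were -0.44 and -0.16, then 0.00 and -0.03, then 0.43 and 0.17. In the group that rose most, with a median of 1.25 in control cells, they were 0.69 and 0.40. The order was the same in both replicate numbers, and replicate 1 spanned the wider range. The groups were formed from both control pairs together, so the order in replicate 2 is not a separate check.

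Transcripts with a large response in both control pairs were then taken alone. There were 647 that were at least 2-fold lower in starved control cells in both numbers, with coding lengths around a median of 732 nt. Of these, 262 (40.5%) lay lower in both knockout libraries than in both Thiamet-G libraries and 6 (0.927%) lay higher, against 16.8% and 17.4% of all tested transcripts. Their median log2 difference was -0.98 in replicate 1 and -0.45 in replicate 2. Of 595 that were at least 2-fold higher in starved control cells, with a median of 1539 nt, 261 (43.9%) lay higher in knockout cells without overlap and 9 (1.51%) lower. Their medians were 1.02 and 0.60. Limma called 0 transcripts of either set in the fed contrast.

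**Figure D4:**
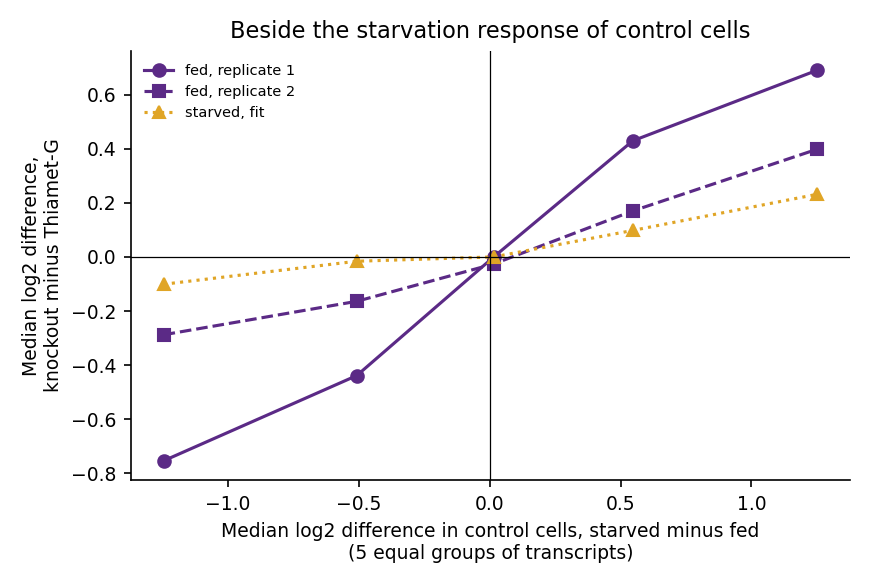
Median log2 difference, knockout minus Thiamet-G, against the median starved minus fed log2 difference in control cells, for 5 equal groups of transcripts ordered by the latter. Fed replicate 1 rises from -0.75 to 0.69, fed replicate 2 from -0.29 to 0.40, and the starved contrast from -0.10 to 0.23.

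Replicate number mattered to this relation as well. Across all tested transcripts the fed difference of replicate 1 correlated with control starvation of replicate 1 at r = 0.661 (Spearman's rho 0.713) and with that of replicate 2 at 0.132. The fed difference of replicate 2 correlated with control starvation of replicate 2 at 0.0491 and of replicate 1 at 0.188. The points are 10936 transcripts that share libraries on each axis, and replicate 1 libraries share their listing from 5 reads. The order was also found within classes of coding length. Within transcripts of over 900 to 1500 nt, the group that fell most in starved control cells (608) had medians of -0.68 and -0.28, and the group that rose most (608) had 0.81 and 0.57. Within those of at most 600 nt the same groups (280 each) had -1.08 and -0.58, and -0.43 and 0.26. Within those over 3000 nt (289 each) they had -0.17 and -0.15, and 0.59 and 0.06.

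Values against fed control cells are set side by side here, and both sets of differences use the same control libraries. For at most 600 nt, knockout minus control had medians of -1.045 and -0.23 in replicates 1 and 2, and Thiamet-G minus control had -0.23 and 0.00. For over 1500 to 3000 nt the values were 0.34 and 0.07 for the knockout and -0.02 and -0.04 for Thiamet-G. For the 647 transcripts that fell in starved control cells, the fit gave medians of -1.01 for the knockout and -0.30 for Thiamet-G against control. For the 595 that rose, it gave 1.02 and 0.21. These sets were chosen with the same fed control libraries, so their values against control are not independent of the choice.

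Footprints of eIF3-bound ribosomes did not track the Ribo-seq difference across transcripts, and their shares differed most between the states over 3000 nt. This assay had 1 fed library of each state, of 154618 reads for the knockout and 359282 for Thiamet-G, so its differences have no replicate check. Among 4955 tested transcripts listed in both files, the knockout minus Thiamet-G difference correlated with that of Ribo-seq at r = -0.0645 (Spearman's rho -0.0691). The median listed transcript had 12 reads in the knockout and 19 in the Thiamet-G library, so a missing relation cannot be told apart from counting error. Medians relative to these 4955 were -0.06 for at most 600 nt (705) and 0.13 for over 3000 nt (864), where Ribo-seq gave -0.56 and 0.19 for the same transcripts. The share of reads on at most 600 nt was 19.1% in knockout (95% Wilson interval 18.9% to 19.3%) and 20.1% in Thiamet-G cells (20.0% to 20.2%). Over 3000 nt it was 23.6% (23.4% to 23.8%) and 18.1% (18.0% to 18.2%). These intervals cover counting error only.

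The transcripts with the largest differences were picked among those listed in all 12 files, with a mean of at least 20 RPKM over the 4 libraries and no overlap between the groups. The 15 largest in each direction ranged from 2.84 to 3.87 higher and from 2.42 to 3.26 lower on the log2 scale. The 15 that were higher in knockout cells were 849 to 2304 nt long, with 1 of at most 900 nt. The 15 that were lower were 210 to 1575 nt long, with 10 of at most 900 nt. Of 10672 tested transcripts with a known length, 1399 were at most 600 nt and 1493 over 600 to 900 nt long. Short regions are more frequent at higher levels. With a mean of at least 10 RPKM over the 12 Ribo-seq libraries they were 1268 and 1259 of 7316. Their share among the transcripts open to this choice was not computed. In 14 of 15 in either direction the difference was larger in replicate 2, the shallower pair, with medians of 4.59 and -3.66 there against 1.65 and -1.68 in replicate 1. In starved cells 12 of 15 kept their direction in either set, where 51.0% of all tested transcripts were above and 47.7% below 0. No member passed the adjusted test, and 2 in each direction are given in more detail. The limit of 20 RPKM could be met through 1 group alone. In all 4 of these the lower group had a mean under 20 RPKM, at 15.5, 6.44, 5.59 and 3.62 RPKM in the order given below.

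The largest difference was that of ENSMUST00000080926, whose coding region spans 1305 nt. Its rescaled level was 136 and 273 RPKM in knockout replicates 1 and 2 (851 and 499 reads), and 25.2 and 5.74 RPKM in Thiamet-G replicates (111 and 14 reads). The lack of overlap between the groups was a condition of the choice. The log2 difference was 3.87 (SE 0.708, limma unadjusted p = 0.000124, adjusted p = 0.823). Fed control cells lay between, at 47.7 and 25.5 RPKM. When cells were starved the levels were 316 and 142 RPKM in control, 148 and 168 RPKM in knockout, and 261 and 163 RPKM in Thiamet-G cells. All 3 starved states thus stood at or above the level of knockout replicate 1, and the starved contrast was -0.39 (SE 0.708, limma adjusted p = 0.985). The change of the contrast with starvation was -4.25 (SE 1.00, limma unadjusted p = 0.00102, adjusted p = 1).

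ENSMUST00000084124, of 1452 nt, measured 124 and 31.9 RPKM in knockout cells (862 and 65 reads) and 11.4 and 1.47 RPKM in Thiamet-G cells (56 and 4 reads). The lack of overlap was a condition here too, and the knockout replicates themselves lay far apart. The log2 difference was 3.53 (SE 1.30, limma adjusted p = 0.823). Fed control cells had 31.4 and 7.03 RPKM, so replicate 1 was the higher one in each fed state. In starved cells it measured 132 and 84.5 RPKM in knockout and 24.5 and 28.1 RPKM in Thiamet-G cells, again without overlap, with a log2 difference of 1.97 (SE 1.30, limma adjusted p = 0.905). Control cells, at 194 and 7.0 RPKM when starved, spanned that whole range. On eIF3-bound ribosomes of fed cells, with 1 library a state, both transcripts higher in knockout Ribo-seq had a lower deposited RPKM in knockout cells. ENSMUST00000080926 had 84.3 RPKM in knockout and 111 in Thiamet-G cells (17 and 52 reads). ENSMUST00000084124 had 84.6 and 151 RPKM (19 and 79 reads). The 2 transcripts described next were not listed in either file.

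ENSMUST00000110531, of 717 nt, was lower in knockout cells, at 10.2 and 0.995 RPKM (35 reads and 1 read), than in Thiamet-G cells, at 21.1 and 92.5 RPKM (51 and 124 reads). The gap was small in replicate 1 and rested on a single knockout read in replicate 2. In reads per library total, Thiamet-G exceeded knockout 1.84-fold in replicate 1 (95% counting interval 1.17 to 2.91) and 86.6-fold in replicate 2 (15.3 to 3446). The log2 difference was -3.26 (SE 0.999, limma adjusted p = 0.823). Fed control cells had 11.6 and 13.8 RPKM, near knockout replicate 1. Starved knockout cells had 6.73 and 6.46 RPKM and starved Thiamet-G cells 6.62 and 17.3 RPKM, which overlapped.

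ENSMUST00000165605, of 1029 nt, measured 4.46 and 2.77 RPKM in knockout cells (22 and 4 reads) and 16.97 and 91.5 RPKM in Thiamet-G cells (59 and 176 reads). The knockout replicates were close to each other, and Thiamet-G replicate 2 stood apart from every other fed library. The log2 difference was -3.17 (SE 1.04, limma adjusted p = 0.823). Fed control cells, at 21.2 and 17.3 RPKM, were near Thiamet-G replicate 1. Starved knockout cells had 8.79 and 21.4 RPKM and starved Thiamet-G cells 77.3 and 24.1 RPKM. The groups did not overlap, but the margin between 21.4 and 24.1 RPKM was narrow and rested on 19 and 28 reads. The starved log2 difference was -1.58 (SE 1.04, limma unadjusted p = 0.153, adjusted p = 0.905).

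**Figure D5:**
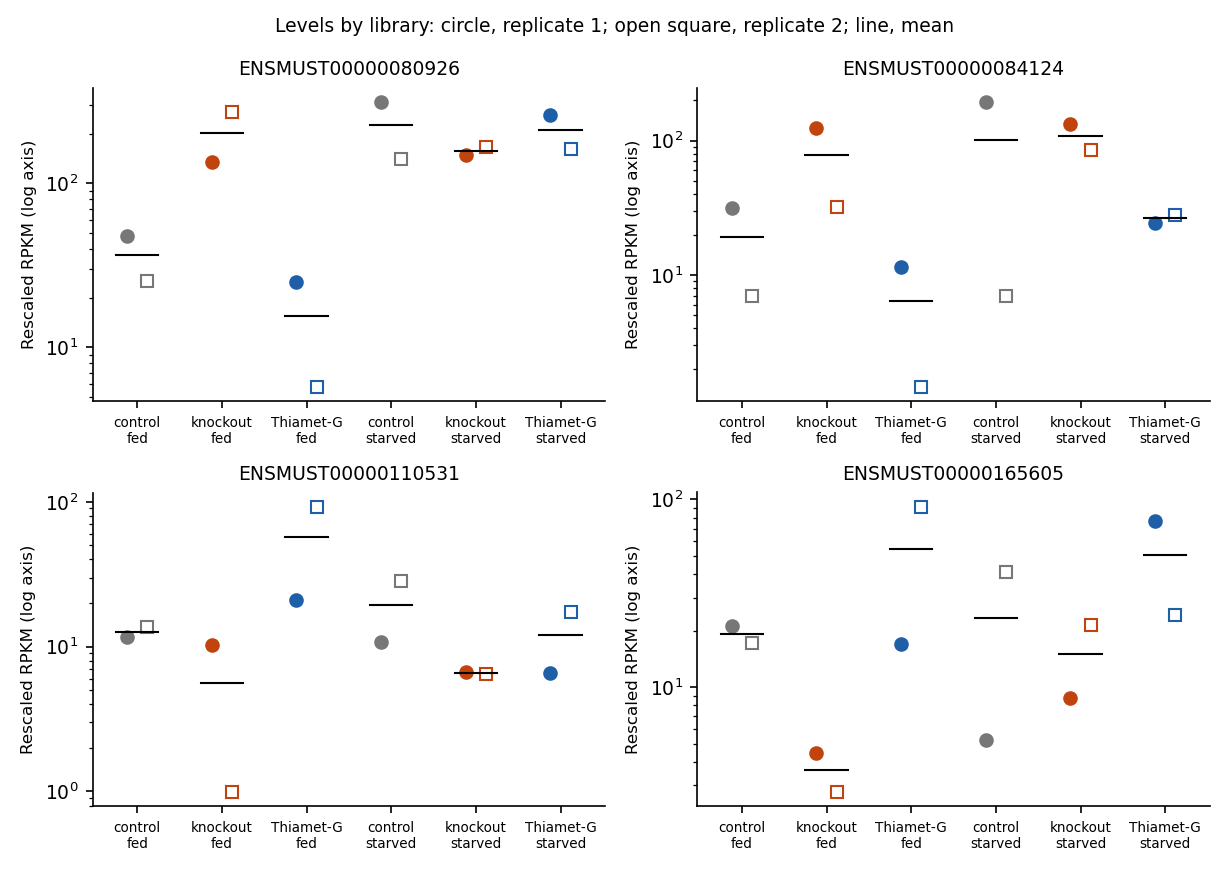
Rescaled RPKM (log axis) of the 4 named transcripts in each Ribo-seq library by state, with filled circles for replicate 1, open squares for replicate 2 and a line at the mean of 2. In fed cells both knockout libraries lie above both Thiamet-G libraries for the upper pair and below them for the lower pair, which their choice required.

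Few transcripts were listed in both files of a state and in neither of the other. Both knockout files and neither Thiamet-G file listed 98 transcripts, with medians of 8 and 3 reads in knockout replicates 1 and 2. Both Thiamet-G files and neither knockout file listed 57, with medians of 10 and 5 reads. The most reads of such a transcript in a library were 101 and 99. A file listed from 5 reads cannot show a transcript of fewer reads, so these lists give no presence or absence.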

How the data were processed

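Titles gave the group and replicate number of each library. Per the labels' protocols, pooled ribosome fractions were digested with RNase and short fragments were sequenced. The names cutadapt, STAR and GRCm38 appear, without their roles, in the submitters' processing notes. For the counter, annotation release and filters the sources used here give nothing. For every library the authors deposited a table of transcripts and their RPKM. Whole reads, library totals and coding lengths were recovered from the steps between RPKM values within a relative tolerance of 1e-09 (lengths for 11602 of 15354 transcripts, 99.88% multiples of 3, which the search partly requires).

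RPKM values were rescaled by the median ratio over transcripts listed in all 12 Ribo-seq files, with 0 for an unlisted transcript. Those whose mean reached 1 RPKM were fitted on log2(RPKM + 1) in all 12 Ribo-seq libraries of 6 groups with limma 3.58.1 in R 4.3.3 (lmFit, eBayes with a trend, two-sided, 6 residual degrees of freedom). Adjusted p-values are Benjamini-Hochberg values over all tested transcripts. Differences refer to this scale and are understated at low levels. Scripts were tested on simulated data without an effect of replicate or listing, which checks the code and not what the fit could find in these libraries.

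In fed cells the replicate numbers of the titles coincide with listing from 5 reads or from 1 read, so values per number are values within each kind of listing. Deviations from group means correlated at 0.188 to 0.453 across transcripts in 10 pairs of groups by title number, and at -0.394 to -0.274 in the 5 pairs with starved Thiamet-G, whose titles and file names carry opposite numbers. Matched by listing, all 15 pairs correlated at 0.188 to 0.453, and at 0.0803 to 0.445 over transcripts listed in all 12 files. The title numbers were therefore not taken to pair the libraries, the fit has no block, and the listing was added as a block in another fit. Starved pairs were also matched by listing.

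Named transcripts were those listed in all 12 files, with a mean of at least 20 RPKM in the 4 libraries and no overlap, ranked by size, at most 2 a direction because identifiers had no gene names. Gene lists could not be used for the same reason. The comparison, the lists and the length classes were chosen with earlier results of these data known. Other settings were pseudocounts of 0.1 and 5, no filter or a higher one, transcripts listed in all files, no rescaling, quantile normalization, no trend, blocks for replicate number or listing, the 4 libraries alone, limma-voom on reads with a mean of at least 10, other limits of length, and each library left out.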

Additional observations from a re-analysis of the deposited data

Results flagged for a closer look

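The share of reads on coding regions of at most 300 nt moved in opposite directions in fed and starved cells when libraries were matched by title number. In fed cells, knockout minus Thiamet-G was -1.26 points in replicate 1 and -1.33 points in replicate 2, a mean of -1.29. In starved cells it was 0.334 and 0.669 points. With starved libraries matched by listing the values were -0.202 and 1.205 points, so the sign was not shared. The difference between fed and starved cells was not tested.

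ENSMUST00000080926, picked for its fed difference, was higher in knockout than in Thiamet-G cells in both fed pairs, by 2.39 and 5.34 on the log2 scale (mean 3.87). In the starved pairs matched by listing it was lower, at -0.14 and -0.64. Matched by title number the starved pairs had -0.81 and 0.04. The limma test of this difference gave an adjusted p of 1.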

How the results depend on the processing

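The fed contrast had 0 calls under all 19 alternatives, with 194 to 1244 transcripts at an unadjusted p under 0.05. The smallest adjusted p was 0.0547 in limma-voom with the listing as a block. It was 0.0526 without Thiamet-G replicate 1, a fit in which the lone library left is assumed to vary like the other groups, as in each fit that leaves out a library. The replicate block of the titles gave 0 calls in limma (741 at an unadjusted p under 0.05), 0 among transcripts listed in all 12 files (702) and 0 in limma-voom (826). In starved cells the contrast had 4 calls (3 higher and 1 lower) with a pseudocount of 0.1 and 1 call with the listing as a block, a setting chosen after seeing the data, and 0 otherwise. The difference between starved and fed cells had 0 calls throughout 22 alternatives. Leaving out single libraries gave 0 calls in each of the 3. It moved the share of reads on at most 600 nt between -13.2 and -7.00 points and on over 3000 nt between -0.115 and 1.91 points. With other limits the differences were -5.77 points for at most 450 nt and 0.170 points for over 4500 nt. Class medians moved, with single libraries left out, between -0.0139 and 0.109 for over 900 to 1500 nt and between -0.0902 and 0.351 for over 3000 nt, and the other 3 classes kept their sign under all 19. Without rescaling the median of all transcripts was 0.08, and in limma-voom, scaled to library totals, 0.14 to 0.15. All 4 named transcripts kept their direction under all 19 alternatives, with a lowest adjusted p of 0.0616 in limma-voom with the listing as a block. They were picked for no overlap between the fed groups, so a library left out could hardly turn their direction. In limma on log2(RPKM + 1), filters, the trend and blocks left their differences unchanged by construction. Single libraries left out moved their log2 differences widely. These ranged from 2.89 to 4.84 for ENSMUST00000080926, 2.38 to 4.69 for ENSMUST00000084124, -4.51 to -2.02 for ENSMUST00000110531 and -4.36 to -1.98 for ENSMUST00000165605. Gene lists were not run. Depth limits transcripts with few reads, as in knockout replicate 2, where the median listed transcript had 43 reads.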
